A study of Homo sapiens with 18 samples.

Results

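The comparison described here is the earliest of a time course in LX-2 cells, a human line derived from hepatic stellate cells: the 3 libraries labelled as given thrombin for 4 h against the 3 labelled control at 4 h, which are 6 of the 18 libraries of the series. They were taken by the treatment and time in their labels, and the change was described across all 15353 genes that passed a filter on low counts. Bulk RNA-seq was made of cells plated for 48 h at 180000 cells per well and then kept in serum-free medium for 1 h. The thrombin group then received thrombin at 1 U/mL for 4 h, and the control group received serum-free medium alone for 4 h. Equal groups of 3 libraries were made at 24 h and 48 h. All groups share the 1 cell line, the serum-free medium and a poly(A) selection of the RNA. The libraries of each group carry the numbers 12, 13 and 14, and values below are given in that order.

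Thrombin is the serine protease at the end of the clotting cascade, and it acts on cells by cleaving protease-activated receptors, which couple to several G proteins and to the small GTPase RhoA. RhoA activity drives actin polymerization, which frees MRTF, the coactivator of the transcription factor SRF, to switch on genes of actin and of the contractile apparatus. Hepatic stellate cells are the vitamin A storing pericytes of the liver, and after injury they become contractile cells that deposit fibrillar collagen.

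Totals of the 6 libraries ran from 14742061 to 23270601 counts, the 10 most abundant genes held 4.00% to 4.93% of each, and the scaling factors lay between 0.975 and 1.026. Levels are given in CPM, read counts scaled to the size of each library with that factor, and changes as log2 fold changes of thrombin over control with their standard error (SE, n = 3 libraries a group). A gene is called, and is said to have risen or fallen, when its adjusted p from edgeR's quasi-likelihood test is under 0.05. All tests are two-sided. Each group at 4 h differed in fewer genes from the oppositely labelled group at 24 h than from the group of its own label. The libraries labelled thrombin 4 h differed from those labelled control 24 h in 11 genes (857 at an unadjusted p under 0.05, and 31 by DESeq2), but from those labelled thrombin 24 h in 2322 genes. The libraries labelled control 4 h differed from thrombin 24 h in 513 genes and from control 24 h in 2340. Against 48 h the order was the other way. Thrombin 4 h differed from thrombin 48 h in 170 genes and from control 48 h in 463. Control 4 h differed from control 48 h in 1217 genes and from thrombin 48 h in 1887. Each direction below therefore rests on the labels, and "thrombin" and "control" mean the libraries so labelled. The first principal component of the 6 libraries, with 40.7% of the variance, parted the groups, and on the second, with 19.3%, control library 12 lay at -29.5 while the other 5 lay between -0.506 and 11.8.

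At 4 h, 965 genes rose and 848 fell in thrombin relative to control, which is 6.29% and 5.52% of the genes tested and 11.8% in both directions together. Counts in the gene lists below are to be read against these shares. Most changes were small. The median log2 change was 0.42 among the genes called higher and -0.45 among those called lower, and 1364 of the 1813 called genes (75.2%) changed by under 1.5-fold. Changes of at least 2-fold were mostly decreases, with 26 genes higher and 112 lower. The 3 thrombin values and the 3 control values did not overlap for 1677 called genes (92.5%), against 3960 (25.8%) of all genes tested. Calls were more frequent where counts were deeper: 1.78% of genes averaging under 1 CPM were called, 7.07% of those from 1 to 10 CPM, 14.2% of those from 10 to 100 CPM and 17.2% of those at 100 CPM or more. The median SE of the log2 change was 0.45 in the lowest of these bands and 0.09 in the highest, so a small change of a rare transcript was not detectable at this depth. Of 13203 protein-coding genes 927 rose and 763 fell (12.8%), and of 983 lncRNA genes 9 rose and 48 fell (5.8%). In bulk RNA, fewer cells of a type and less RNA per cell cannot be told apart. Many of the smaller changes rested on single libraries, so calls lost in 1 or more of the 6 fits that each left out 1 library are given with the genes described below.

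**Figure D1:**
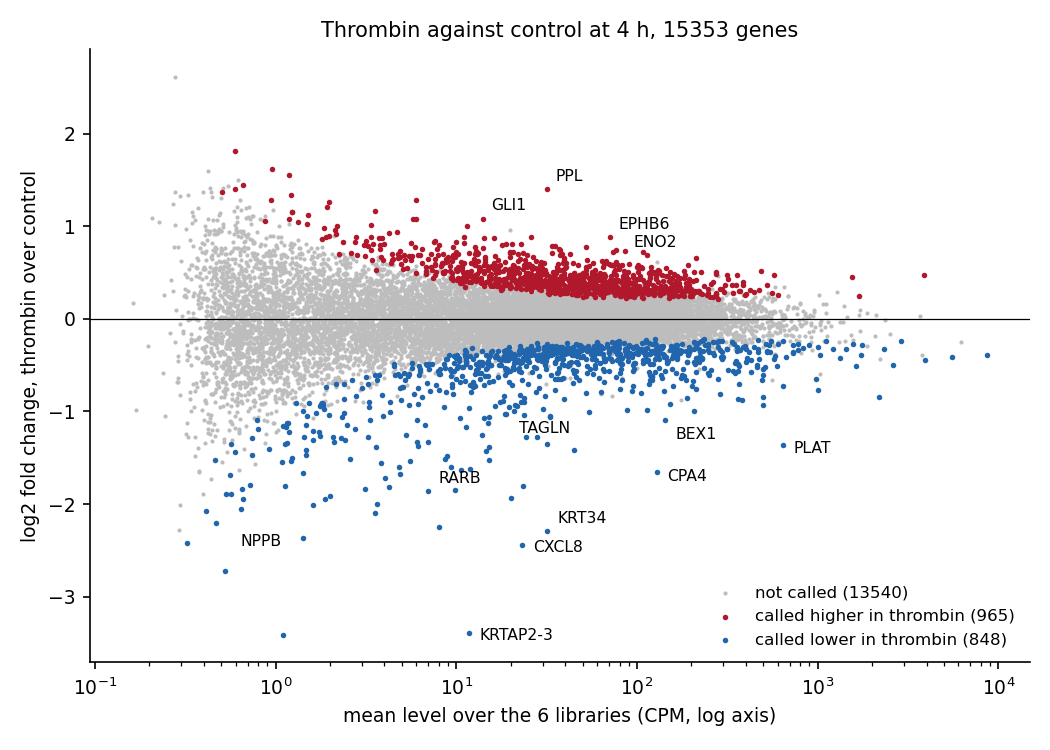
Each point is 1 of 15353 genes, with its mean level over the 6 libraries on the x axis (CPM, log axis) and the log2 fold change of thrombin over control on the y axis; red points are the 965 genes called higher and blue points the 848 called lower. Among called genes the decreases reach further from 0 than the increases: KRTAP2-3 lies at -3.40, and PPL, the largest increase at 2 CPM or more in a group, at 1.40.

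Part of the contractile apparatus fell in thrombin. Of 31 tested genes of the SRF and MRTF list, 12 fell, 1 rose and 18 were not called, and the median log2 change of the list was -0.25, against -0.000835 over all genes tested. TAGLN, which encodes the smooth muscle actin-binding protein transgelin, had 36.9, 36.4 and 35.1 CPM in thrombin, against 79.4, 68.7 and 70.4 CPM in control. The 3 thrombin values lay within 2 CPM of each other and none reached the lowest control value, a log2 change of -1.01 ± 0.12 (edgeR adjusted p = 6.59e-06). ACTG2, the enteric smooth muscle actin, had 2.004, 1.36 and 2.605 CPM in thrombin, against 4.15, 5.07 and 6.398 CPM in control, a change of -1.38 ± 0.23, with control libraries above all thrombin libraries. TPM1, a tropomyosin that lies along actin filaments, had 413, 344 and 384 CPM in thrombin, against 619, 607 and 574 CPM in control, and changed by -0.66 ± 0.08 without overlap. CALD1, which encodes the actin and myosin binding protein caldesmon, had 239.9, 202 and 186 CPM in thrombin, against 301, 406 and 391 CPM in control. Its change was -0.81 ± 0.11, and library 12 was the highest of the thrombin group and the lowest of the control group. MYL6 and MYL9, light chains of myosin II, changed by -0.57 ± 0.09 and -0.54 ± 0.09. The abundant cytoskeletal actins ACTB and ACTG1 changed by -0.44 ± 0.07 and -0.41 ± 0.07, and their reads can be shared among the actin genes, so the split between them is uncertain. FHL2, TPM4, FLNA and ACTN1, which encode a LIM domain protein, another tropomyosin, filamin A and alpha-actinin, also fell, with log2 changes from -0.42 for FHL2 to -0.32 for ACTN1. SRF itself, the transcription factor of the list, was the member that rose, with 95.3, 102 and 105 CPM in thrombin, against 79.7, 80.2 and 72.95 CPM in control, a change of 0.37 ± 0.09. ACTA2, alpha smooth muscle actin and the usual mark of an activated stellate cell, had 10.2, 7.62 and 10.2 CPM in thrombin, against 10.8, 10.9 and 11.4 CPM in control, a log2 value of -0.24 ± 0.14. Its values did not overlap, but it missed the threshold at an edgeR adjusted p of 0.273. The list kept 11 to 14 genes called lower with any 1 of the 6 libraries left out, and 3 without all libraries numbered 13. SRF lost its call without thrombin library 14 or control library 14, and ACTN1 in 4 of the 6 fits.

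The CArG box, the site that SRF binds, was searched in the promoters of RefSeq genes (250 bases before to 50 after the gene's start, GRCh38.p14). It was found in 8 of the 26 SRF and MRTF genes with a promoter in the table, against 126 of 11609 promoters of tested genes (1.09%), 15 of 658 promoters of genes called lower (2.28%) and 8 of 737 of genes called higher (1.09%). The 8 were CNN2, MYLK, TPM4, ACTG2, ACTG1, FLNA, FHL2 and SRF, of which 5 fell, 1 rose and 2 were not called. The list was drawn up as SRF and MRTF genes, so its share of CArG boxes follows in part from that choice. The 15 promoters of genes called lower include the 5 of this list, so the 2 shares are not separate. The promoter of ACTG2 is shown because it holds the motif at 2 places, positions -110 to -101 and -73 to -64 from the start. It lies at chr2:73892758-73893057 on the plus strand, with the CArG boxes in capitals.
ACTG2: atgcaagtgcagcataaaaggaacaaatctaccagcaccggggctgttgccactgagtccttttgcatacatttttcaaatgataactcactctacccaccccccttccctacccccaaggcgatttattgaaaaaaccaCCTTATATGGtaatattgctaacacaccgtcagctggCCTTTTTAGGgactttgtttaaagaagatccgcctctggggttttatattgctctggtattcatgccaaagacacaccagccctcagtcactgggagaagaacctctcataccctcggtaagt

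**Figure D2:**
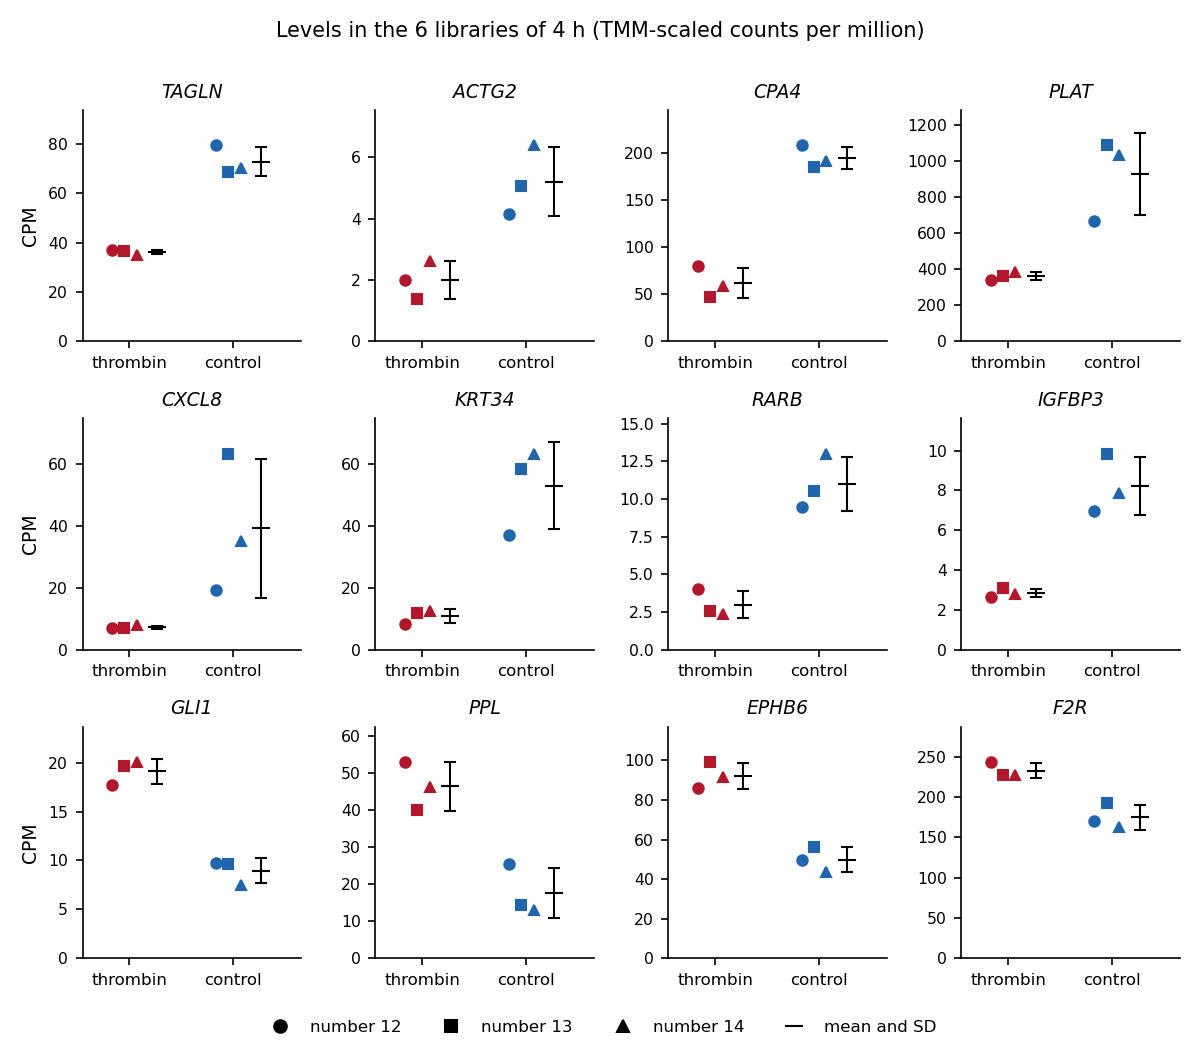
Levels of 12 genes in each of the 6 libraries of 4 h on a linear axis from 0 (CPM); circles, squares and triangles are the libraries numbered 12, 13 and 14, and the black bars give mean and SD. Thrombin and control values do not overlap in any of the 12 panels, which were picked from called genes, so this follows in part from the choice. Control library 12 lies nearest to the thrombin values for ACTG2, PLAT, CXCL8, KRT34, RARB, IGFBP3, GLI1 and PPL, and not for TAGLN, CPA4, EPHB6 and F2R.

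Most keratins of epithelia and hair fell in thrombin. Of 10 tested keratin and keratin-associated genes 7 fell and the rest were not called, with a median log2 change of -1.19. KRT34, a hair keratin, had 8.16, 11.8 and 12.7 CPM in thrombin, against 37.02, 58.6 and 63.4 CPM in control, a change of -2.29 ± 0.26 (edgeR adjusted p = 3.7e-05). KRT81, another hair keratin, had 9.603, 7.97 and 13.8 CPM in thrombin, against 34.5, 37.2 and 37.8 CPM in control, and changed by -1.81 ± 0.18. In both genes the highest thrombin library was under the lowest control library by more than the range of the thrombin group. KRTAP2-3, a keratin-associated protein of hair, had 1.86, 1.97 and 2.29 CPM in thrombin, against 12.4, 24.5 and 27.5 CPM in control, and control library 12 was about as far below the other control libraries as above the thrombin libraries. KRT86, KRTAP1-5, KRT8 and KRT18 also fell, with log2 changes of -0.82 ± 0.19, -1.81 ± 0.45, -0.46 ± 0.13 and -0.36 ± 0.11. KRT8 and KRT18 are the paired keratins of simple epithelia. Reads of KRT81 and KRT86, of the KRTAP2 genes, and of KRT8 and KRT18 with their pseudogenes can be shared, so the levels of single members are uncertain. Among 11 junction genes, PPL, which encodes the cytolinker periplakin, and JUP, which encodes plakoglobin, rose, and CDH2, N-cadherin, fell. PPL had 52.9, 39.9 and 46.2 CPM in thrombin, against 25.4, 14.3 and 12.9 CPM in control, the largest increase of a called gene averaging at least 2 CPM in a group, 1.40 ± 0.25 (edgeR adjusted p = 0.00207). Members of the keratin and junction list called lower numbered 8 with all libraries, 4 without thrombin library 13 or control library 13, and 7 or 8 without any other library. KRT8 and JUP lost their call in 4 of the 6 fits, KRT18 in 3, CDH2 and KRTAP1-5 in 2 and KRT86 in 1.

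Part of the genes of clotting and of plasmin formation fell. Of 17 tested members of the coagulation and fibrinolysis list, 8 fell and the rest were not called, with a median of -0.27. PLAT, tissue plasminogen activator, had 339.8, 359.8 and 383 CPM in thrombin, against 666, 1086 and 1029.6 CPM in control. The thrombin values were close together, the control values were not, and the groups did not overlap, with a change of -1.36 ± 0.14 (edgeR adjusted p = 2.68e-06). SERPINB2, an inhibitor of plasminogen activators, had 0.792, 2.07 and 1.22 CPM in thrombin, against 3.14, 7.99 and 6.12 CPM in control, and changed by -2.10 ± 0.50; this call was lost without thrombin library 14 and without control library 13. F3, tissue factor, which starts clotting, had 64.7, 54.4 and 73.1 CPM in thrombin, against 82.4, 108 and 113 CPM in control, a change of -0.66 ± 0.14. ANXA2 and S100A10, the subunits of a plasminogen receptor, changed by -0.51 ± 0.10 and -0.24 ± 0.07; ANXA2 has pseudogenes that can share its reads. TFPI2, an inhibitor of plasmin, and THBD, thrombomodulin, changed by -0.44 ± 0.12 and -1.28 ± 0.38, and THBD overlapped between the groups. S100A10 lost its call in all 6 fits that left out 1 library, THBD in 4 of them and by limma, and TFPI2 in 3 and after the GC correction described below. PLAU, urokinase, had a log2 value of -0.25 ± 0.13 and was not called. The list had 4 to 8 members called lower with 1 of the 6 libraries left out, with 4 without thrombin library 14 or control library 13, 5 without thrombin library 12, and 1 without all libraries numbered 13.

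The gene of the main thrombin receptor rose. F2R, which encodes the thrombin receptor PAR1, had 243, 227 and 227 CPM in thrombin, against 169.6, 192 and 162 CPM in control, with all thrombin values above all control values, and rose by 0.41 ± 0.08 (edgeR adjusted p = 0.00105). F2RL1 (PAR2, which trypsin cleaves) had a log2 value of 0.43 ± 0.21 and F2RL2 (PAR3) of -0.50 ± 0.35, neither called. F2RL3 (PAR4) was not tested, with at most 2 raw counts in a library. SERPINE2 and PROCR, a thrombin inhibitor and the protein C receptor, had log2 values of 0.14 ± 0.10 and 0.24 ± 0.12 and were not called. Among signalling genes, 5 of 30 genes of G protein signalling and desensitization fell and 2 rose (23.3% called, against 11.8% of all genes tested). The share that rose was near the 6.29% of all genes. RHOB had 324, 415 and 403 CPM in thrombin, against 522, 555 and 531 CPM in control, and RHOA, the GTPase that links thrombin receptors to actin, changed by -0.31 ± 0.07. RGS4, which speeds the turn-off of G protein alpha subunits, had 100.5, 68.5 and 62.4 CPM in thrombin, against 102, 168 and 131 CPM in control. Its control library 12 lay within 2 CPM of thrombin library 12, and the change was -0.80 ± 0.18. RGS2 and GNAI3 also fell, with log2 changes of -0.60 and -0.28. ARRB1 and GRK5, a beta-arrestin and a receptor kinase that silence activated receptors, rose by 0.32 ± 0.07 and 0.25 ± 0.08. The 5 genes called lower became 3 without thrombin library 13, thrombin library 14 or control library 14. GRK5 lost its call in 5 of the 6 fits, GNAI3 in 4 and RGS2 in 3.

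Immediate early genes, whose transcripts rise within an hour of a stimulus in many cells, were mostly not called or lower at this time. Of 24 tested, 5 fell and 1 rose (25% called, against 11.8% of all genes tested), with a median of 0.015. FOSL1, an AP-1 subunit, had 234, 234 and 305 CPM in thrombin, against 349.5, 526 and 530.3 CPM in control, a change of -0.86 ± 0.16. KLF2 had 133, 159 and 139 CPM in thrombin, against 209.8, 229 and 223 CPM in control, a change of -0.62 ± 0.13, and MYC, KLF6 and IER2 changed by -0.36 ± 0.08, -0.49 ± 0.11 and -0.36 ± 0.11. NR4A1, an orphan nuclear receptor, was the member that rose, by 0.48 ± 0.13. EGR1 had 72.6, 37.5 and 49.9 CPM in thrombin, against 70.3, 24.6 and 18.2 CPM in control, and FOS had 4.89, 4.74 and 3.61 CPM in thrombin, against 3.85, 4.37 and 2.71 CPM in control; both overlapped between the groups, with log2 values of 0.50 ± 0.44 and 0.26 ± 0.19 that were not called. For EGR1, libraries numbered 12 were high in both groups, and it was called higher under 3 of the 19 alternatives, with a log2 value of 1.31 without control library 12. Of the 5 genes that fell, 2 were called without control library 13, where MYC, KLF6 and IER2 lost their call; IER2 lost it in 5 of the 6 fits, and NR4A1 in 4. Of 17 feedback genes of ERK signalling, 17.6% were called, against 11.8% of all genes tested. DUSP1, a phosphatase of MAP kinases, fell, with a log2 change of -0.55. SPRED3 and ETV4 rose, and both lost their call in 4 of the 6 fits that left out 1 library. After the GC correction described below, 0 of the feedback genes were called higher and 2 lower.

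Part of the chemokines fell. Of 13 tested chemokine genes 6 fell and the rest were not called, and the median was -0.86. CXCL8 (interleukin 8, which draws neutrophils) had 6.95, 6.96 and 7.81 CPM in thrombin, against 19.2, 63.2 and 34.98 CPM in control. The thrombin libraries were alike, while the control libraries ranged more than 3-fold and stayed above them, a change of -2.45 ± 0.45 (edgeR adjusted p = 0.00393). CXCL6 and CXCL1, which act on the same receptor family, had changes of -0.96 ± 0.17 and -1.03 ± 0.24. CCL26, an eosinophil chemokine, had 0.559, 0.858 and 1.06 CPM in thrombin, against 2.902, 2.52 and 4.03 CPM in control, a change of -1.91 ± 0.31 with no overlap. CXCL14 fell, with a log2 change of -1.15. CCL2, the monocyte chemokine MCP-1, had 5.78, 5.804 and 4.31 CPM in thrombin, against 8.35, 12.7 and 5.77 CPM in control. Its groups overlapped in control library 14. The change of -0.78 ± 0.23 lost its call in 4 of the 6 fits that left out 1 library. It was also lost by limma and after the GC correction described below. CXCL14 lost its call in all 6 fits, and CXCL1 without control library 13. Chemokines called lower numbered 3 to 6 over these fits, 3 being without control library 13, and 1 without all libraries numbered 13.

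Among 22 cytokines and their receptors 6 fell and the rest were not called, with a median of -0.24. IL1B, interleukin 1 beta, had 20.1, 28.3 and 24.98 CPM in thrombin, against 38.6, 86.3 and 70.6 CPM in control, a change of -1.42 ± 0.31, and LIF, of the interleukin 6 family, had 6.57, 6.61 and 8.03 CPM in thrombin, against 10.6, 23.8 and 12.5 CPM in control, a change of -1.17 ± 0.24. In both genes the thrombin values lay together below scattered control values. IL33, TNFRSF1A, TNFRSF1B and TNFSF4 also fell. The 6 genes called lower became 2 without thrombin library 13 and 3 without control library 13, and IL33, TNFRSF1A and TNFSF4 were lost in both of these fits and TNFRSF1B without thrombin library 13. IL6 had 0.373, 0.606 and 0.585 CPM in thrombin, against 1.599, 0.838 and 0.209 CPM in control, a log2 value of -0.79 ± 0.46 that was not called, and its groups overlapped. Among 25 NF-kappa-B genes 3 rose and 3 fell (24% called, against 11.8% of all genes tested). The subunit genes NFKB2 and RELB had changes of 0.52 ± 0.10 and 0.64 ± 0.12, and RELB had 44.5, 49.9 and 49.3 CPM in thrombin, against 32.9, 31.99 and 26.98 CPM in control. The inhibitors of cell death CFLAR, TNFAIP3 and BIRC2 changed by -0.48 ± 0.09, -0.60 ± 0.17 and -0.43 ± 0.13, and TNIP1 rose. TNFAIP3 and BIRC2 lost their call in 4 of the 6 fits and TNIP1 in 3, and the NF-kappa-B genes called lower numbered 1 without control library 13 or 14.

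Collagen chain genes were called at 12.5%, near the 11.8% of all genes tested. Of 24 tested, 3 fell and the rest were not called, with a median of -0.08. Leaving out 1 library gave 1 called lower without thrombin library 13, 2 without thrombin library 14, control library 13 or control library 14, and 5 without thrombin library 12. COL1A1, the main chain of type I collagen, had 2229, 2071 and 1860.4 CPM in thrombin, against 2772, 2549 and 2412 CPM in control, a change of -0.33 ± 0.10 (edgeR adjusted p = 0.0346), which was lost in 4 of the 6 fits that left out 1 library. COL5A1 and COL8A1 changed by -0.48 ± 0.10 and -0.38 ± 0.09. COL1A2 and COL3A1 had log2 values of -0.40 ± 0.19 and 0.47 ± 0.25, overlapped between groups and were not called; under 4 of the 19 alternatives COL1A2 was called lower and COL3A1 higher, among them the fit of 18 libraries with the replicate block. LOXL2, which cross-links collagen, had 355, 312 and 356 CPM in thrombin, against 572, 709.6 and 667 CPM in control, a change of -0.93 ± 0.09 (edgeR adjusted p = 8.82e-07), and it was called under all 19 alternatives. PLOD2 fell and PLOD1 rose, both lysyl hydroxylases of collagen, with changes of -0.39 ± 0.11 and 0.29 ± 0.09. PLOD1 lost its call in 5 of the 6 fits that left out 1 library, with upper-quartile scaling and after GC correction, PLOD2 in 3 of the 6 fits, and COL8A1 in 2.

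Secreted matricellular proteins fell in part. Of 19 tested, 7 fell and the rest were not called, with a median of -0.38. TGFBI, an adhesion protein first found as a TGF-beta induced gene, had 298, 246 and 262 CPM in thrombin, against 489, 539 and 451 CPM in control, a change of -0.88 ± 0.11. THBS1 and THBS2, the thrombospondins, had changes of -0.58 ± 0.12 and -0.84 ± 0.13. RELN, reelin, had 1.63, 1.56 and 1.22 CPM in thrombin, against 2.72, 8.25 and 6.54 CPM in control; its control library 12 lay much nearer to the thrombin values than the other control libraries, and the change was -1.99 ± 0.35. MATN2, FBLN2 and EFEMP1 fell, with log2 changes of -0.38, -0.43 and -0.40. Of 26 matrix proteases and inhibitors 5 fell and 1 rose (23.1% called, against 11.8% of all genes tested). ADAM19, a membrane metalloprotease, had 60.4, 59.05 and 58.4 CPM in thrombin, against 85.8, 143 and 124 CPM in control, a change of -0.99 ± 0.13. TIMP3, an inhibitor of metalloproteases, changed by -0.51 ± 0.08, and ADAM12, ADAMTS2 and ADAMTS6 fell. MMP19 rose by 0.36 ± 0.12. TIMP1 had a log2 value of -0.23 ± 0.09 and was not called. The proteases and inhibitors called lower numbered 3 without thrombin library 13 or 14, and 8 without thrombin or control library 12. ADAMTS2 lost its call in 5 of the 6 fits, MMP19 and EFEMP1 in 4, ADAM12 in 3 and MATN2 in 1. HAS2, a hyaluronan synthase, had 2.56, 2.78 and 2.98 CPM in thrombin, against 6.101, 15.8 and 17.6 CPM in control, a change of -2.25 ± 0.52 whose call was lost without thrombin library 13, thrombin library 14 or control library 14.

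Cell adhesion and mechanical signalling genes fell in part. Of 16 integrin subunits 6 fell and 1 rose (43.8% called, against 11.8% of all genes tested). ITGA5 and ITGB1, which form the fibronectin receptor, changed by -0.56 ± 0.10 and -0.52 ± 0.11, ITGA4 by -0.73 ± 0.15, ITGA3 by -0.29 ± 0.08, ITGA6 by -0.62 ± 0.17 and ITGB8 by -0.40 ± 0.12. ITGB5 rose by 0.27 ± 0.09, a call lost in 5 of the 6 fits that left out 1 library. ITGA6 and ITGB8 lost theirs in 3, ITGA3 in 1, and 3 integrins were called lower without control library 13. Of 24 targets of YAP and TAZ, the coactivators that respond to cell tension, 7 fell and 1 rose (33.3% called), with a median of -0.24. IGFBP3, a carrier of insulin-like growth factors, had 2.66, 3.08 and 2.82 CPM in thrombin, against 6.99, 9.84 and 7.86 CPM in control, a change of -1.54 ± 0.17 (edgeR adjusted p = 2.11e-06). RBMS3, an RNA-binding protein, had 23.8, 16.3 and 20.7 CPM in thrombin, against 30.4, 39.1 and 35.1 CPM in control, and CRIM1 changed by -0.46 ± 0.11. CCN1 and CCN2, the best known targets of the pathway, had log2 values of -0.21 ± 0.09 and -0.26 ± 0.12 and were not called. With 1 of the 6 libraries left out, 3 to 9 of these targets were called lower, 3 of them without thrombin library 13, control library 13 or control library 14; CRIM1 was lost in each of these 3 fits.

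Genes of the TGF-beta and BMP pathways were called in both directions (30.4% of 46 tested, against 11.8% of all genes tested). Of 9 ligand genes, 3 rose (BMP4, GDF11 and GDF15) and 2 fell (INHBA and INHBB, the activin and inhibin beta chains), of 16 SMAD and antagonist genes 1 rose and 2 fell, and of 8 response genes 4 fell. INHBA had 13.3, 14.3 and 15.4 CPM in thrombin, against 20.3, 46.9 and 36.4 CPM in control, a change of -1.28 ± 0.23. The response genes ID1 and ID2, inhibitors of DNA binding that BMP signals induce, had changes of -1.13 ± 0.21 and -0.71 ± 0.13, and ID1 had 8.903, 9.89 and 9.62 CPM in thrombin, against 14.8, 24.2 and 22.9 CPM in control. SMAD3 and SMAD6, an inhibitory SMAD, fell, with log2 changes of -0.36 and -0.62, and SMAD1 rose by 0.41 ± 0.13. BMP4 rose by 0.35 ± 0.11, and LTBP3, which stores latent TGF-beta in matrix, changed by -0.42 ± 0.09. Genes of the whole list called higher numbered 5 with all libraries, 1 without thrombin library 13, thrombin library 14 or control library 13, 2 without control library 14 and 3 without thrombin library 12. GDF15 and BMP4 lost their call in 5 of the 6 fits, SMAD1 and SMAD6 in 4, GDF11 in 3 and INHBB in 2.

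Of 20 tested growth factor ligands 6 fell, and of 17 receptors 3 fell and 1 rose. Together 27% of them were called, against 11.8% of all genes tested. FGF1, acidic fibroblast growth factor, had 8.903, 8.33 and 10.5 CPM in thrombin, against 15.4, 22.4 and 20.1 CPM in control, a change of -1.07 ± 0.13. FGF2, PDGFA, NRG1, HBEGF and BDNF changed by -0.38 ± 0.10, -0.44 ± 0.10, -0.48 ± 0.11, -0.54 ± 0.13 and -0.49 ± 0.13. The receptors AXL, MET and NRP2 fell, and ERBB2 had 184, 195 and 200.04 CPM in thrombin, against 148, 149.8 and 145 CPM in control, an increase of 0.39 ± 0.08. PDGFRB, the receptor that marks stellate cells, had a log2 value of 0.26 ± 0.16 and was not called. Of 6 insulin-like growth factor binding proteins, IGFBP3 and IGFBP6 fell, the change of IGFBP6 being -0.43 ± 0.11, and IGFBP2 rose by 0.81 ± 0.21. The 9 ligands and receptors called lower became 4 without thrombin library 13, control library 13 or control library 14. MET lost its call in 5 of the 6 fits, FGF2 and NRP2 in 4, BDNF, AXL and IGFBP2 in 3, and HBEGF and IGFBP6 in 1, without control library 13.

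Part of the Hedgehog pathway rose. Of 14 tested, 4 rose and the rest were not called, and their median was 0.14. GLI1, a transcription factor of the pathway and one of its own targets, had 17.7, 19.7 and 20.04 CPM in thrombin, against 9.77, 9.66 and 7.44 CPM in control, with no overlap, a change of 1.08 ± 0.15 (edgeR adjusted p = 2.76e-05). PTCH1, a receptor for Hedgehog ligands that the pathway also induces, had 35.7, 31.9 and 33.1 CPM in thrombin, against 24.2, 20.4 and 20.8 CPM in control, with no overlap, a change of 0.62 ± 0.11. SMO, the signal transducer that PTCH1 holds inactive, had 63.2, 69.6 and 72.7 CPM in thrombin, against 46.6, 41.8 and 47.3 CPM in control, a change of 0.60 ± 0.09. All 4 members that rose stayed called with any 1 of the 6 libraries left out, and 1 was called without all libraries numbered 13. The GLI motif TGGGTGGTC was found on either strand in 25 of 11609 promoters of tested genes (0.215%), in 4 of 737 of genes called higher (0.543%) and in 3 of 658 of genes called lower (0.456%). Of the 8 Hedgehog genes with a promoter in the table, PTCH1 held it, at -172 to -164, in capitals here; the window is chr9:95509217-95509516 on the minus strand.
PTCH1: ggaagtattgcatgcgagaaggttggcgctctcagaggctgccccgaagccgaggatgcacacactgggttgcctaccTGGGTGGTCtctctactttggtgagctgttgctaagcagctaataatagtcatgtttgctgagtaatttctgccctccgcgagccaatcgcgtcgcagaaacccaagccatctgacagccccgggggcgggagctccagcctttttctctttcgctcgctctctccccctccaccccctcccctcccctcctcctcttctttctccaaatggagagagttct

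Of 34 Wnt and Notch genes 4 rose and 1 fell (14.7%, near the 11.8% of all genes tested). After the GC correction described below, 2 were called higher and 1 lower, and FZD2 lost its call. The Wnt coreceptor LRP5 had 53.1, 51.3 and 52.8 CPM in thrombin, against 36.1, 36.3 and 40.5 CPM in control, an increase of 0.48 ± 0.09, and the ligand WNT5B had 69.2, 78.4 and 88.5 CPM in thrombin, against 107, 114 and 111 CPM in control, a change of -0.49 ± 0.09. FZD2, TCF7L2 and the Notch ligand DLL1 rose by 0.32, 0.28 and 0.45 on the log2 scale. TCF7L2 lost its call in 5 and FZD2 and DLL1 in 4 of the 6 fits that left out 1 library, and the genes called higher numbered 1 without thrombin library 14 or control library 13 and 2 without thrombin library 13, control library 12 or control library 14.

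Retinoid genes, which bear on the vitamin A stores of stellate cells, mostly fell where they were called. Of 12 tested, 5 fell and 2 rose. RARB, a retinoic acid receptor that retinoic acid itself induces, had 4.01, 2.57 and 2.39 CPM in thrombin, against 9.48, 10.5 and 13.01 CPM in control, a change of -1.86 ± 0.19 (edgeR adjusted p = 8.82e-07). DHRS3, which turns retinaldehyde back to retinol, had 1.07, 1.56 and 1.49 CPM in thrombin, against 6.34, 4.72 and 3.62 CPM in control, and CYP26B1, which breaks down retinoic acid, changed by -0.69 ± 0.14. Both are also induced by retinoic acid. ALDH1A3, which makes retinoic acid, had 13.1, 15.3 and 15.3 CPM in thrombin, against 21.4, 31.1 and 30.5 CPM in control, a change of -0.93 ± 0.13. STRA6, the retinol transporter, was at a low level and fell, a call lost in 5 of the 6 fits that left out 1 library and by DESeq2, with 0.233, 0.101 and 0.372 CPM in thrombin, against 0.652, 0.706 and 0.695 CPM in control. The receptor genes RXRA and RARG rose, by 0.50 ± 0.08 and 0.56 ± 0.13. RARB, DHRS3 and ALDH1A3 were called under all 19 alternatives.

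In cholesterol metabolism 8 of 31 genes fell and 7 rose (48.4% called, against 11.8% of all genes tested). Among those that fell, INSIG1, which holds SREBP in the endoplasmic reticulum when sterols are plentiful, had 486, 518 and 450.1 CPM in thrombin, against 841, 777 and 784 CPM in control, a change of -0.72 ± 0.08. HMGCS1, which makes HMG-CoA, had 877, 750.4 and 593 CPM in thrombin, against 1418, 1140.3 and 1218 CPM in control, a change of -0.77 ± 0.14. SQLE, IDI1, STARD4 and the efflux pump ABCA1 also fell. Among those that rose, the late enzymes DHCR7 and TM7SF2 had 0.47 ± 0.09 and 0.73 ± 0.15 as changes. DHCR7 had 648, 678 and 669.6 CPM in thrombin, against 502, 477 and 460.3 CPM in control, and TM7SF2 had 85.4, 99.5 and 88.7 CPM in thrombin, against 73.2, 48.7 and 43.4 CPM in control. LSS, MVK, SREBF2 and NR1H2 rose by 0.25 to 0.36 on the log2 scale. The 7 genes called higher became 3 without thrombin library 13, thrombin library 14 or control library 13 and 4 without control library 14, and the 8 called lower became 5 without thrombin library 13. SQLE and SREBF2 lost their call in 5 of the 6 fits, MVK and NR1H2 in 4, IDI1 in 3 and ABCA1 in 1. The split moved with the GC content of transcripts, described below: after correction for it, 4 of these genes were called higher and 10 lower. Of 30 genes of fatty acids and lipid droplets 4 rose and 3 fell (23.3% called). CPT1A, the gate of mitochondrial fatty acid oxidation, had 61.4, 61.2 and 71.6 CPM in thrombin, against 40.9, 44.6 and 45.00 CPM in control, an increase of 0.57 ± 0.10, the desaturases FADS1 and FADS2 rose by 0.52 ± 0.09 and 0.45 ± 0.09, AGPAT2 rose, and GPAM, LPIN1 and PNPLA3 fell. AGPAT2 lost its call in 4 of the 6 fits, PNPLA3 in 3 and LPIN1 in 2, and the fatty acid genes called higher numbered 8 without thrombin library 12.

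Large changes of well expressed genes were also found outside these lists. CPA4, a secreted carboxypeptidase, had 79.4, 47.1 and 58.6 CPM in thrombin, against 208, 185 and 191 CPM in control, a change of -1.66 ± 0.14 (edgeR adjusted p = 3.47e-07). BEX1, a small neuronal adaptor protein, had 95.2, 87.3 and 91.97 CPM in thrombin, against 193, 197 and 196 CPM in control, a change of -1.10 ± 0.10 with the same adjusted p by edgeR, 3.47e-07. In both genes every thrombin value was under 50% of every control value. CTSL, the lysosomal protease cathepsin L, had 132, 156 and 125 CPM in thrombin, against 239, 287 and 299 CPM in control, a change of -0.998 ± 0.13. Among increases at 50 CPM or more, EPHB6, an ephrin receptor without kinase activity, had 85.8, 99.1 and 91.4 CPM in thrombin, against 49.6, 56.3 and 43.5 CPM in control, a change of 0.88 ± 0.10. SDK1, an adhesion molecule of neurons, AK5, an adenylate kinase, ENO2, the neuronal enolase, and LZTS2 rose by 0.74 ± 0.10, 0.77 ± 0.10, 0.73 ± 0.08 and 0.72 ± 0.11. AK5 had 59.9, 66.97 and 69.6 CPM in thrombin, against 38.6, 37.8 and 38.6 CPM in control, and its control values lay within 1 CPM of each other. Lower in level, CDK18, a cyclin-dependent kinase, had 8.06, 7.07 and 8.399 CPM in thrombin, against 4.09, 3.93 and 2.99 CPM in control, ANKRD34A had 7.32, 7.27 and 9.78 CPM in thrombin, against 3.79, 3.88 and 3.83 CPM in control, and METTL7A had 7.88, 7.97 and 9.68 CPM in thrombin, against 5.09, 2.65 and 2.78 CPM in control, each with no overlap. Among decreases, NPPB, which encodes B-type natriuretic peptide, had 0.326, 0.454 and 0.585 CPM in thrombin, against 2.37, 1.99 and 2.78 CPM in control, a change of -2.36 ± 0.34. FOLR3 had 0.792, 0.505 and 1.01 CPM in thrombin, against 2.55, 3.13 and 3.199 CPM in control, and DRGX, a homeobox gene of sensory neurons, had 4.43, 4.19 and 5.37 CPM in thrombin, against 10.7, 17.03 and 14.5 CPM in control. ESM1, endocan, had 6.48, 10.4 and 8.13 CPM in thrombin, against 15.3, 45.5 and 33.9 CPM in control, and its call was lost without thrombin library 12 or 14, or control library 13 or 14.

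The promoter of CPA4 is shown because it holds AP-1 motifs (TGACTCA, on either strand) at -48 to -42 and -15 to -9 and the TEAD motif GGAATG at -134 to -129, marked in capitals; the motifs do not overlap. The window is chr7:130292911-130293210 on the plus strand. The AP-1 motif was found in 379 of 11609 promoters of tested genes (3.26%), in 29 of 658 of genes called lower (4.41%) and in 19 of 737 of genes called higher (2.58%). The TEAD motif was found in 11.2% of all these promoters, 11.1% of those called lower and 11.1% of those called higher.
CPA4: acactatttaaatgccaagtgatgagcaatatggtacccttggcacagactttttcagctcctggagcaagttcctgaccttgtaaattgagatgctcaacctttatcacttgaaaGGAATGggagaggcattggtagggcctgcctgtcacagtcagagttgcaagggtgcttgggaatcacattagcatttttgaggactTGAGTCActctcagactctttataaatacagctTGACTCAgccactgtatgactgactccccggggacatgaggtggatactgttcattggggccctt

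Of 38 genes of interferon responses and antigen presentation 8 rose and 1 fell (23.7% called, against 11.8% of all genes tested). The transporters TAP1 and TAP2, which carry peptides to MHC class I, had changes of 0.63 ± 0.09 and 0.37 ± 0.08, and TAP1 had 73.1, 78.98 and 79.8 CPM in thrombin, against 53.6, 48.3 and 48.5 CPM in control. PSMB8 and PSMB10, subunits of the immunoproteasome, STAT2, IRF1, MX1 and PARP9 rose by 0.30 to 0.55 on the log2 scale. SAMD9 fell, with 119.9, 100.3 and 97.2 CPM in thrombin, against 149.5, 223 and 226 CPM in control. The number called higher was 2 to 11 with 1 of the 6 libraries left out, against 8 with all 18 libraries; it was 2 without control library 13 or 14, 3 without thrombin library 14 and 4 without thrombin library 13. PSMB8, IRF1, MX1 and PARP9 lost their call in 4 of these fits, and PSMB10 and STAT2 in 3. Of 16 complement genes 3 rose and 2 fell (31.2% called). C3, the central component, had 1.86, 1.72 and 4.52 CPM in thrombin, against 0.948, 1.19 and 1.32 CPM in control; thrombin library 14 was more than 2 times the other thrombin libraries, and the call was lost without it or without control library 12 or 13. CLU, clusterin, had 342, 363 and 399.5 CPM in thrombin, against 301, 256 and 239 CPM in control, an increase of 0.47 ± 0.10, and CD55, which protects cells from complement, had 12.1, 13.1 and 11.2 CPM in thrombin, against 19.9, 22.7 and 25.4 CPM in control, a change of -0.90 ± 0.14; C1QTNF1 rose and CD59 fell. CD59 lost its call in 3 of the 6 fits and C1QTNF1 in 1.

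Of 28 genes of calcium, NFAT and vasoactive peptides 4 fell and 2 rose (21.4% called, against 11.8% of all genes tested). The share that rose was near the 6.29% of all genes. NFATC2, a calcium-regulated transcription factor, had 1.82, 1.51 and 2.29 CPM in thrombin, against 4.26, 7.19 and 7.02 CPM in control, a change of -1.72 ± 0.26, and TRPC4, a calcium channel, had 1.82, 1.01 and 1.12 CPM in thrombin, against 3.26, 2.82 and 3.76 CPM in control. NFATC4 went the other way, with 72.4, 88.98 and 82.6 CPM in thrombin, against 59.8, 48.8 and 50.1 CPM in control, a change of 0.62 ± 0.11, STIM1 rose, and NPPB and NPR3, a receptor that clears natriuretic peptides, fell. STIM1 and NPR3 lost their call in 4 of the 6 fits that left out 1 library.

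Lists of growth and metabolism held calls in both directions, and some had a share of called genes near the 11.8% of all genes. Of 32 ribosome biogenesis genes 6 fell and the rest were not called (18.8%), with a median of -0.19; NCL, nucleolin, had 697, 678 and 689 CPM in thrombin, against 865, 857 and 889.6 CPM in control, a change of -0.34 ± 0.07. Of 27 genes of the ATF4 and amino acid response 4 fell (14.8%), among them SLC7A5, the large neutral amino acid transporter, with 16.1, 14.3 and 16.4 CPM in thrombin, against 27.01, 38.2 and 30.5 CPM in control, a change of -1.03 ± 0.14. Of 33 genes of glycolysis and hypoxia 7 fell and 2 rose (27.3%). LDHA, lactate dehydrogenase, had 171, 165 and 137 CPM in thrombin, against 246, 262 and 247 CPM in control, a change of -0.67 ± 0.08, and NDRG1, a hypoxia-induced gene, changed by -0.73 ± 0.09; LDHA, PGK1, PGAM1 and ENO1 have pseudogenes that can share reads. Of 19 FoxO and growth factor withdrawal genes 5 rose and 3 fell (42.1%). GABARAPL1, of autophagy, and KLHL24 rose by 0.54 ± 0.11 and 0.56 ± 0.13, while TSC22D3, a glucocorticoid-induced leucine zipper, had 31.3, 36.3 and 33.4 CPM in thrombin, against 56.9, 54.2 and 51.8 CPM in control, a change of -0.69 ± 0.09. With 1 library left out, ribosome genes called lower numbered 3 without thrombin library 14, ATF4 genes 1 without control library 13 and 2 without thrombin library 13, and glycolysis and hypoxia genes 3 without control library 13 and 4 without thrombin library 12, thrombin library 14 or control library 14. FoxO genes called higher numbered 2 without thrombin library 14 and 3 without thrombin library 13, control library 13 or control library 14, and those called lower 1 without thrombin library 14, control library 13 or control library 14.

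Of 25 lysosome and autophagy genes GABARAPL1, ATG9A and TFEB, a transcription factor of lysosomal genes, rose, and the cathepsins CTSL and CTSB fell (20%). ATG9A lost its call in 3 of the 6 fits that left out 1 library and TFEB in 2, and the genes called higher numbered 1 without thrombin library 13 and 6 without thrombin library 12. Of 15 genes of D cyclins and CDK inhibitors CCND3, cyclin D3, and CDKN2D were called higher and CDKN2B, another inhibitor of CDK4 and CDK6, lower (20%), with log2 changes of 0.28 ± 0.09, 0.35 ± 0.11 and -0.37 ± 0.10. Neither CCND3 nor CDKN2D was called without thrombin library 13, thrombin library 14, control library 13 or control library 14, or with upper-quartile scaling, and CDKN2D was not called by limma or after GC correction; CDKN2B lost its call in 2 of the 6 fits. Of 12 hyaluronan genes HYAL3 was called higher and HAS2 and HMMR lower (25%). HYAL3 lost its call in 4 of the 6 fits and after GC correction, and both HAS2 and HMMR lost theirs without thrombin library 13, thrombin library 14 or control library 14. Called shares in both directions together that were under the 11.8% of all genes were found in mitosis (1 lower of 35), DNA replication (3 lower of 35), p53 targets (1 higher and 1 lower of 24), the respiratory chain (1 lower of 27), heat shock proteins and metallothioneins (1 higher of 20), the circadian clock (1 lower of 17), NRF2 targets (2 lower of 21), and ER folding and secretion (2 lower of 25). The last 2 were HSPA5, the chaperone BiP, and MANF, with log2 changes of -0.34 ± 0.07 and -0.26 ± 0.08; MANF lost its call in 12 of the 19 alternatives, among them 5 of the 6 fits that left out 1 library. Of 13 prostaglandin genes 0 were called by edgeR and by DESeq2, with 2 at an unadjusted p under 0.05.

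**Figure D3:**
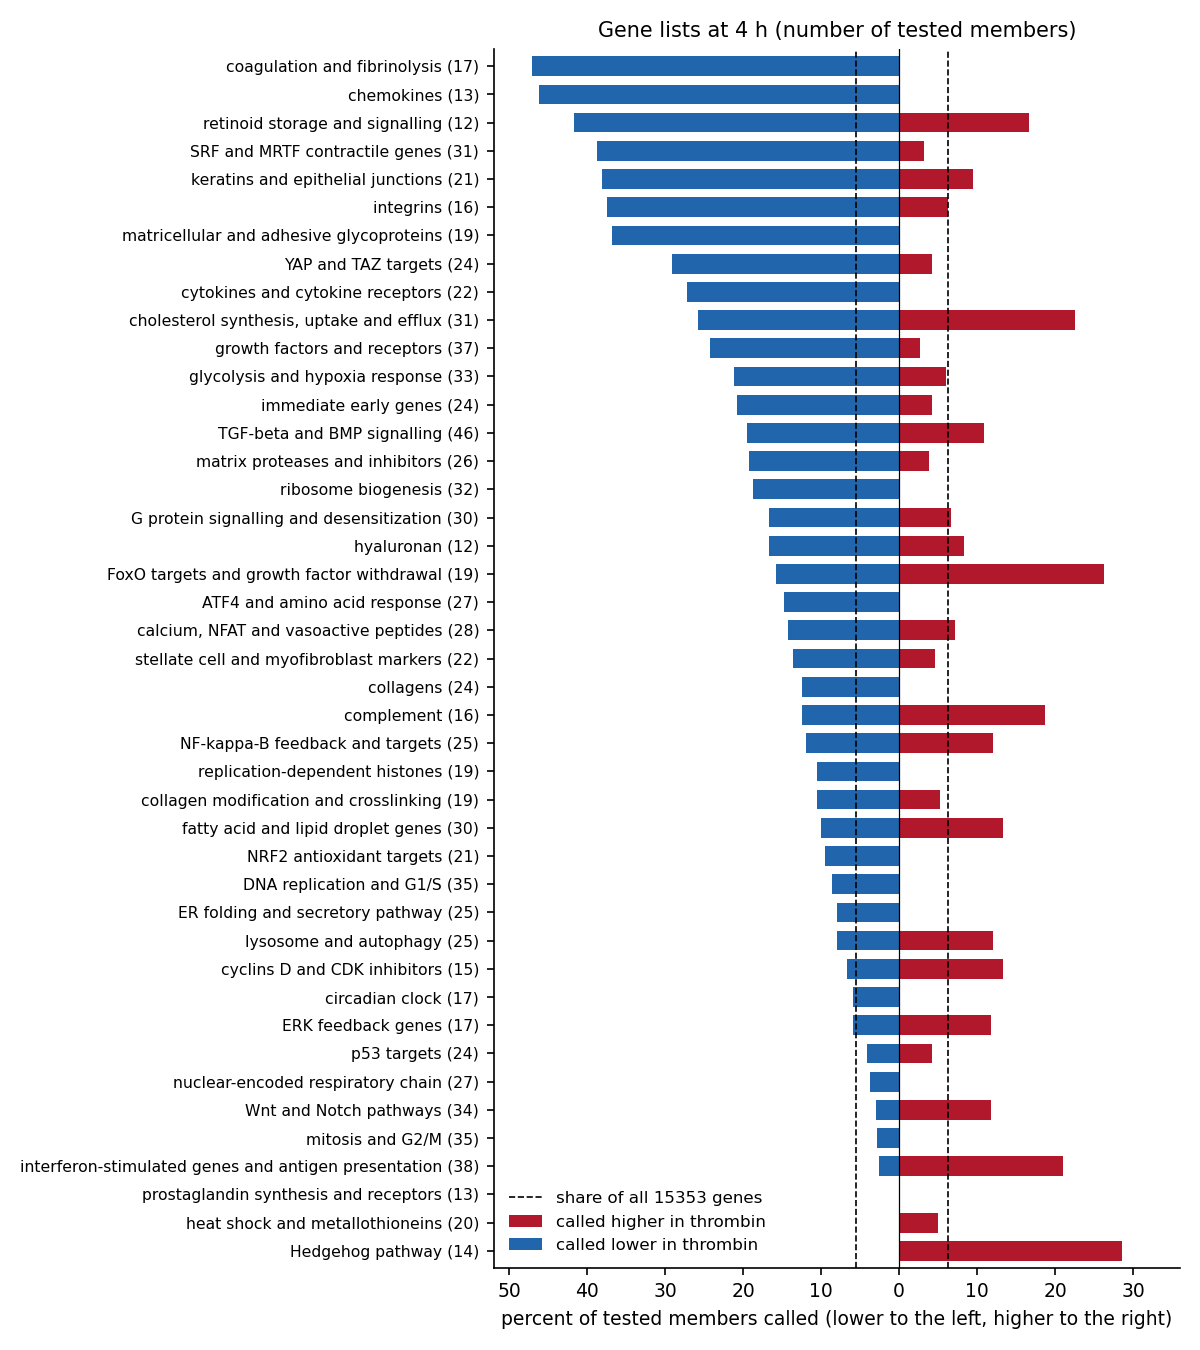
Each row is a gene list with at least 10 tested members, whose number is in parentheses; blue bars to the left give the percent of tested members called lower in thrombin and red bars to the right the percent called higher, with dashed lines at the shares of all 15353 genes (5.52% and 6.29%). Coagulation, chemokine, retinoid and contractile genes have the longest bars to the left, and Hedgehog genes the longest bar to the right.

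The label of the cells was checked against markers. Of 26 stellate cell and myofibroblast markers 22 were tested. LRAT, DCN, LUM and CYGB were not tested, with at most 6, 5, 10 and 5 raw counts in a 4 h library. The summed level of the tested markers was 7457 to 8202 CPM in thrombin libraries, against 8218 to 8594 CPM in control libraries. Of these, LHX2, a transcription factor of stellate cells, rose, and TAGLN, RELN and COL1A1 fell; LHX2 and COL1A1 lost their call in 4 of the 6 fits that left out 1 library. Of the markers of other liver cells, ALB, CD3E, LYVE1 and CFTR had at most 1 raw count in a 4 h library. They are single members of their lists, and other members were expressed. The filter was passed by 3 of 10 hepatocyte, 9 of 10 endothelial, 4 of 10 macrophage and leukocyte, and 4 of 8 cholangiocyte markers. The summed level of hepatocyte markers was 6.76 to 9.78 CPM in thrombin and 7.77 to 8.42 CPM in control, and that of endothelial markers 57.0 to 67.9 CPM in thrombin and 59.0 to 69.5 CPM in control. Macrophage and leukocyte markers summed to 74.4 to 94.3 CPM in thrombin and 80.5 to 103 CPM in control, and cholangiocyte markers, keratins among them, to 165 to 182 CPM in thrombin and 172 to 280.4 CPM in control. Their part in the results above was not tested. Of the 3, 9, 4 and 4 tested members of these lists, 0 were called by edgeR and by DESeq2, with 5 of the 20 at an unadjusted p under 0.05 (KDR, CD14, KRT19, KRT7 and SOX9). Replication-dependent histones, whose transcripts lack a poly(A) tail, summed to 216 to 264 CPM in thrombin and 252 to 286 CPM in control, with 2 of 19 lower (H2AC6 and H2BC21, H2BC21 being lost in 4 of the 6 fits).

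The effect at 4 h was compared with that at the later times, which have control libraries of their own. At 24 h 2700 genes (17.6%) were called between thrombin and control, and at 48 h edgeR called 0 (0%; 1110 at an unadjusted p under 0.05) and DESeq2 14. The difference of the 2 effects, tested in the same model, was called for 4293 genes against 24 h (28% of those tested) and for 97 against 48 h (0.632%). Of the differences from 24 h, 1666 were also called at 4 h, which is 91.9% of the 4 h calls and 38.8% of the differences. Of those from 48 h it was 96 genes, 5.3% of the 4 h calls and 99.0% of the differences. Each difference contains the 4 h effect from the same libraries, so this overlap is partly built in and is no separate evidence. A 4 h call with no called difference from 48 h does not show that the effect was present at 48 h. TAGLN and CALD1, which fell at 4 h, were higher in thrombin at 24 h: TAGLN had a log2 change of -1.01 ± 0.12 at 4 h and 2.52 ± 0.13 at 24 h, and CALD1 -0.81 ± 0.11 at 4 h and 1.54 ± 0.11 at 24 h. GLI1 showed the opposite order, with 1.08 ± 0.15 at 4 h and -0.78 ± 0.15 at 24 h. Of the 961 genes called at both times, 948 had opposite signs. These signs rest on the labels of each time, and thrombin 4 h differed from control 24 h in 11 genes, as given above. Whether labels were exchanged at 1 of the times was not tested. The same sign was found for 13 of the 961. RELB was among them, with 0.64 ± 0.12 at 4 h and 0.83 ± 0.12 at 24 h, and HMGCS1, with -0.77 ± 0.14 at 4 h and -0.64 ± 0.14 at 24 h. Others were SQLE, IDI1, LPIN1, CDKN2B, TSC22D3, APOL2, CD24, CHD4, FBXO4 and NINJ1, named after their values were seen. INSIG1 and CD55 were called at 4 h and not at 24 h, where their log2 values were -0.14 ± 0.08 and 0.03 ± 0.15, and for both the difference between the times was called (edgeR adjusted p = 0.000359 and 0.00107).

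**Figure D4:**
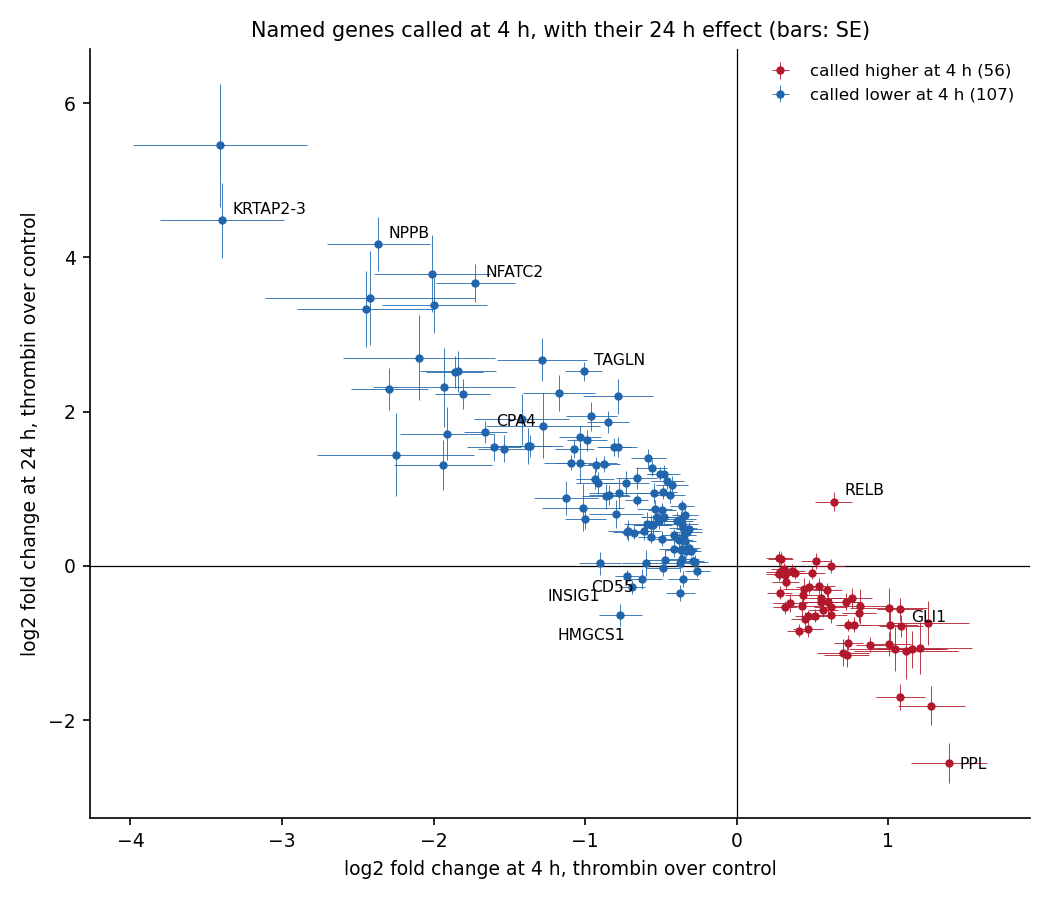
Log2 fold changes of thrombin over control at 4 h (x axis) and 24 h (y axis) of the 163 named genes called at 4 h, 56 higher (red) and 107 lower (blue), with SE bars. Most genes lie in the quadrants of opposite sign; RELB, higher at both times, and HMGCS1, lower at both, lie outside them. Signs at both times rest on the labels.

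The libraries numbered 12 showed smaller changes than those numbered 13 and 14, although same-numbered libraries showed no shared deviation from their group means. Taken within each number, the median log2 change of the genes called higher was 0.29, 0.44 and 0.52 for numbers 12, 13 and 14, and that of the genes called lower was -0.34, -0.52 and -0.55. Of the 965 and 848 genes, 921 and 804 had the called direction in number 12, and all of them had it in numbers 13 and 14. The genes were called from these same libraries, so this agreement is partly fixed by the selection and is no replication. The counts of calls depended on single libraries. They were 1772 higher and 1788 lower without all libraries numbered 12, 34 and 62 without number 13, and 254 and 257 without number 14. Leaving out 1 of the 6 libraries, thrombin library 13 gave 525 higher and 463 lower, thrombin library 14 gave 425 and 415, control library 13 gave 560 and 459, and control library 14 gave 509 and 499. No called gene changed sign in these fits, which reuse libraries of the main fit. Of the 163 named genes called at 4 h, 109 stayed called with any 1 of the 6 libraries left out, 38 were called under all 19 alternatives, and 50 more lost their call only without all libraries numbered 13.

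GC content of the transcripts moved with the comparison. The median GC content, by the longest GENCODE v29 transcript of each gene, was 56.8% for genes called higher, 45.6% for genes called lower and 48.6% for all tested genes. Over 10 equal groups of genes ordered by GC content, the median log2 change ran from -0.085 in the lowest to 0.13 in the highest. Within number 12 it ran the other way, from 0.11 to -0.10, and within numbers 13 and 14 from -0.17 to 0.23 and from -0.21 to 0.29. An alternative chosen after seeing the data removed the relation of level to GC content in each library. It left 2277 genes called, 1130 higher and 1147 lower, with median GC contents of 51.4% and 49.8%, and 1595 of the 1813 calls (88%) were kept, none with the other sign. In the contractile list 18 genes were then called lower, 6 more than before. Counts of other lists moved both ways with the correction. YAP and TAZ targets called lower went from 7 to 5, and ribosome biogenesis genes called lower from 6 to 10. Whether GC content was a cause of any change was not tested.

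**Figure D5:**
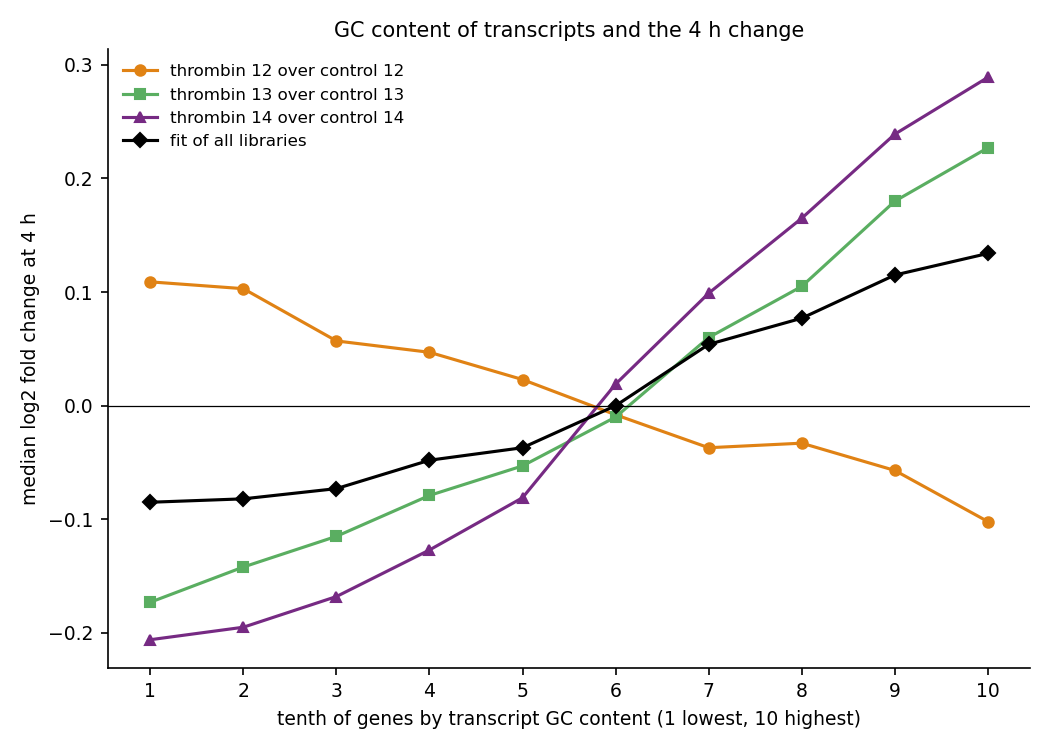
Median log2 fold change of thrombin over control at 4 h in 10 equal groups of genes ordered by GC content of their transcripts, for each number (coloured) and for the fit of all libraries (black). The lines of numbers 13 and 14 rise to 0.23 and 0.29 in the group of highest GC content, while that of number 12 falls to -0.10.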

How the data were processed

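LX-2 libraries were sequenced as bulk poly(A)-selected RNA, and the authors deposited 1 table of raw read counts per gene symbol for all 18 libraries. The tools named in the submitters' processing notes are Bowtie2 2.5.4, cutadapt 4.9, DESeq2 and SAMtools 1.21, and the build is GRCh38; their roles, the counting tool, the annotation and the strand setting are not given in the sources used here. Of 28278 symbols, 4439 had no count and 15353 passed edgeR's filterByExpr (minimum count 10, minimum total 15). Groups came from the labels. Counts of all 18 libraries were scaled by TMM and fitted with edgeR 4.0.16 (R 4.3.3, robust quasi-likelihood, group means, a biological coefficient of variation of 9.07%, 12 residual df), with Benjamini-Hochberg adjustment over all genes tested. The SE is the log2 change divided by the square root of its F value. Alternatives used DESeq2 1.42.0 and limma 3.58.1. On simulated counts for 15353 genes with 200 changed at 4 h, 62.1%, 87.9% and 93.8% of 1.5-, 2- and 4-fold changes were called, and 5.36% of calls were false. The simulated libraries had no GC trend and no outlying library, so these shares need not hold for the calls above. Promoters came from RefSeq (GRCh38.p14), in which 26998 symbols (95.5%) matched, and reads of overlapping or antisense genes cannot be told apart, since the strand setting is unknown. The labels do not say whether the libraries came from separate cultures, so the p-values reflect variation among these libraries alone, possibly technical.

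Genes were named by rule: the 12 largest called, non-overlapping changes in each direction at 2 CPM or more, the 6 largest at 50 CPM or more, up to 4 called members of each of 49 gene lists with the smallest adjusted p, 30 anchor genes, and the 5 largest differences between times in each direction. Other called members are named to account for each list, after their values were seen; some members are counted but not reported by name here. The genes, lists and tests were chosen with earlier results of these data known.

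The numbers 12, 13 and 14 were not used to pair the libraries, as described with the alternatives.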

Additional observations from a re-analysis of the deposited data

Results flagged for a closer look

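The thrombin effect differed between 4 h and 24 h for 4293 genes and between 4 h and 48 h for 97 genes by edgeR. Each difference below is the log2 effect at 4 h minus that at the other time, for the 5 genes with the largest difference in each direction. Both effects rest on the labels.

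Against 24 h, the keratin-associated genes KRTAP2-1, KRTAP2-4 and KRTAP2-3 had differences of -8.88, -8.86 and -7.88. These genes share near-identical sequence, and counts were low: KRTAP2-1 had 1, 0 and 6 raw counts in thrombin at 4 h, against 4, 17 and 6 in control, and 0 in every control library at 24 h, so its fitted difference depends on the prior count and is no measure of size. NPPB differed by -6.53 and LINC01010 by -5.90. LINC01010 had 2, 2 and 2 raw counts in thrombin and 6, 18 and 7 in control at 4 h. In the other direction, PPL differed by 3.96, ASIP by 3.92, PURPL by 3.48, FSTL5 by 3.38 and VWA5A by 3.32. KRTAP2-1, ASIP, PURPL, FSTL5 and VWA5A were not called at 4 h.

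Against 48 h, RELN differed by -2.31, KRT34 by -2.27, FOLR3 by -2.01, DRGX by -1.94 and ACTG2 by -1.89. GLI1 differed by 1.09, MYH16 by 1.01, AK5 by 0.83, HOXC6 by 0.79 and VANGL2 by 0.72. Without libraries numbered 13 edgeR called 0 differences from 48 h (699 at an unadjusted p under 0.05).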

How the results depend on the processing

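The counts of 965 genes higher and 848 lower stayed within 1.5 times under DESeq2 (1151 and 953), median-of-ratios scaling (991 and 823), upper-quartile scaling (800 and 995), no filter (993 and 1077), non-robust dispersion (952 and 847), limma (921 and 783) and GC correction (1130 and 1147, added after seeing the data). They moved with the libraries fitted: 570 and 668 with only the 6 libraries of 4 h, 325 and 421 with those and the replicate block, 1772 and 1788 without libraries numbered 12, 34 and 62 without 13, and 254 and 257 without 14. Leaving out 1 library gave 425 to 1283 higher and 415 to 1114 lower. The replicate block in the fit of 18 libraries gave 951 and 878. Deviations of same-numbered 4 h libraries from their group means correlated at -0.0931, -0.00245 and -0.0119. Between libraries of any 2 groups, same-numbered correlations ran from -0.167 to 0.275 and other ones from -0.228 to 0.22. No shared deviation by number was seen, and no pairing was used. What the numbers mean is not given, so a paired design is not excluded.

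The 4293 differences from 24 h became 1585 without libraries numbered 13 and 2420 without 14, 3478 to 4710 with 1 library left out, and 4290 with the replicate block. The 97 differences from 48 h became 236 by DESeq2, 381 without the filter, 163 with the replicate block, 294 after GC correction, 1133 without libraries numbered 12, 20 without 14, and 41 to 290 with 1 library left out. Without libraries numbered 13 edgeR called 0 (699 at an unadjusted p under 0.05; DESeq2 was not run on that subset). The cause of these changes was not tested.

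Of the 163 named genes called at 4 h, DESeq2 kept 162, GC correction 155, the fits without libraries numbered 12, 13 and 14 kept 157, 39 and 102, and none of them turned direction. All of these fits reuse libraries of the main fit. IL6, which was not called, had a log2 value of 0.04523 without libraries numbered 12, against -0.79 with all. Genes under 1 CPM had a median SE of 0.45, which limits them to large changes.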
